A study of Mus musculus with 18 samples.

Results

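The hotspots described here are those of mice with the B6 allele of Prdm9 alone. They were followed into mice in which that allele was opposed by either the Humanized or the PWD allele. All 16974 autosomal DMC1 hotspots of B6/B6 testis were taken, out of 165207 autosomal hotspots in 9 maps on mouse build mm10. For each of them the nearest hotspot centre within 1000 bp was sought in the B6/Humanized map and in the B6/PWD map, and a hotspot with such a centre is called found in that map. The B6/Humanized males were inbred B6 mice with 1 B6 and 1 Humanized allele. The B6/PWD males were (B6xPWD)F1 hybrids with 1 B6 and 1 PWD allele, so every autosome pair had a B6 and a PWD copy. The B6/B6 males were inbred B6 mice. Both heterozygotes were sampled at about 10 weeks of age, and no age is given here for the B6/B6 males, whose map the authors made anew from a library that others had submitted. Each DMC1 map came from 1 library, so no test between genotypes was run and no p-value is given. The intervals below are 95% intervals that cover the counting of hotspots only. The heterozygotes also differed in their genomes and libraries, and these differences cannot be told apart from that of the opposing allele.

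PRDM9 is a zinc-finger protein of meiotic cells that binds DNA by sequence and places trimethylation of histone H3 lysine 4 (H3K4me3) beside its binding site. Meiotic double-strand breaks follow at some of these sites, and DMC1 is the strand-exchange protein that coats the resected, single-stranded ends. ChIP-seq of DMC1 therefore maps breaks, and the heat of a hotspot is the DMC1 signal that the authors gave it. Zinc-finger arrays differ between alleles: the Humanized allele carries a human array on the mouse protein, and the PWD allele that of a strain derived from another mouse subspecies. In a heterozygote both proteins are present in the same nuclei.

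The sequences of 5 hotspot centres with a match to a short pattern are shown, and they span the outcomes followed below. The sequences are the mm10 plus strand of 300 bases around a B6/B6 centre. Capitals mark matches to the pattern GNTGCTNC or, on the other strand, GNAGCANC. The pattern stood in 38.1% of all B6/B6 centres, so a match in each of the 5 does not show how often it occurs. The Asxl2 site (chr12:3513369-3513668) was found in both heterozygotes, the Magi2 site (chr5:19420226-19420525) in B6/Humanized only and the Impa1 site (chr3:10317279-10317578) in B6/PWD only. The first Wdr70 site (chr15:8005503-8005802) was found in both with very unequal heat, and the second Wdr70 site (chr15:7949651-7949950) in neither.
Asxl2: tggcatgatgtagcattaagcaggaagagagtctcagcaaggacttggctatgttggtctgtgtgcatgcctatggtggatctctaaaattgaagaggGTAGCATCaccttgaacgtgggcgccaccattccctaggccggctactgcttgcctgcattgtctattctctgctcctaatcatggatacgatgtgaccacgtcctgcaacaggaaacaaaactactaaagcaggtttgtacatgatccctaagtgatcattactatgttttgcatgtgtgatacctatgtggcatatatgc
Magi2: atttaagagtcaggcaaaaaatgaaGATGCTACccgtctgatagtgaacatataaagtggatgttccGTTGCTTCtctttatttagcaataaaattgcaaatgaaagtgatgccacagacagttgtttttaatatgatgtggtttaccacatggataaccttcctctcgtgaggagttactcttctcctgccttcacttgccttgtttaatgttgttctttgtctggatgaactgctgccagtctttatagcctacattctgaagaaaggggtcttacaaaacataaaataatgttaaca
Impa1: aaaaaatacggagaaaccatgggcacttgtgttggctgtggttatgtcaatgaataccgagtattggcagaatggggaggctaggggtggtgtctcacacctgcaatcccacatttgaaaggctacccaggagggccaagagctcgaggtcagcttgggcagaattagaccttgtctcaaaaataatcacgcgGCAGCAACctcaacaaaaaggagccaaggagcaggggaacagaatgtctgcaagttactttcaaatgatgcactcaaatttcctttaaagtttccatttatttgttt
Wdr70, first site: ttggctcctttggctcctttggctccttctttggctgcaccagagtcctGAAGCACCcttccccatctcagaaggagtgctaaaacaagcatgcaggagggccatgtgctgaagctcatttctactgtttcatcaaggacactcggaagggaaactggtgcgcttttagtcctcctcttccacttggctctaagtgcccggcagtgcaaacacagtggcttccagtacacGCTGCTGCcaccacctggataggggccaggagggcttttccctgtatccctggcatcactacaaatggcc
Wdr70, second site: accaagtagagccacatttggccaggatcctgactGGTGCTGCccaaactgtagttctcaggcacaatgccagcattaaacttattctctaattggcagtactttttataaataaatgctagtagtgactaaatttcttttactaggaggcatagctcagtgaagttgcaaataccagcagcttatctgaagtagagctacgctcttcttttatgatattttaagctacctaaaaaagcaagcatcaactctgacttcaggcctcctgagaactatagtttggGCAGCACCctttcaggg

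The pattern was put together from the words of 8 bases most enriched at B6/B6 centres, after these had been seen. It stood in 38.1% (37.3 to 38.8) of the B6/B6 centres, against 13.2% of windows of the same length 1000 bases away, 15.6% of Humanized/Humanized centres and 15.2% of PWD/PWD centres. The leading word GCAGCAGC, or GCTGCTGC on the other strand, stood in 8.37% of B6/B6 centres and in 1.84% of the windows 1000 bases away. Every match to it is also a match to the pattern. The share of centres with GNTGCTNC was 40.5% at hotspots found in both heterozygotes, 41.9% in B6/Humanized only, 38.6% in B6/PWD only and 36.7% in neither. The intervals of hotspots in both (38.9 to 42.0) and in neither (35.8 to 37.7) did not overlap. Those of B6/Humanized only (38.5 to 45.4) and B6/PWD only (36.6 to 40.7) overlapped that of hotspots in both. That of B6/PWD only also overlapped that of neither. B6/B6 heat was not held equal here, with medians of 189.6 in both and 29.7 in neither. The pattern stood in 33.6% (31.4 to 35.9) of centres in the coldest decile of B6/B6 heat and 39.7% (37.4 to 42.0) in the hottest. The part of heat in the difference between the sets was not tested.

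Fewer B6 hotspots were found opposite the Humanized allele than opposite the PWD allele. The B6/Humanized map held 4601 of the B6/B6 hotspots, 27.1% (26.4 to 27.8), and the B6/PWD map 6075, 35.8% (35.1 to 36.5). The difference was -8.68 percentage points (-9.30 to -8.06), counted over the same hotspots. Both maps held 3828, B6/Humanized alone held 773, B6/PWD alone held 2247 and neither held 10126. The B6/Humanized set lay largely within the B6/PWD set: 83.2% (82.1 to 84.3) of the hotspots found in B6/Humanized were also in B6/PWD, and 63.0% (61.8 to 64.2) of those found in B6/PWD were also in B6/Humanized. Both heterozygote maps share the B6/B6 map as anchor, so hot anchors raise both shares.

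Maps without any B6 allele give the level at which centres fall within 1000 bp of one another in this series. The Humanized/PWD map of the (B6xPWD)F1 held 474 of the B6/B6 hotspots, 2.79%, the PWD/Humanized map of the (PWDxB6)F1 352, 2.07%, the Humanized/Humanized map 364, 2.14%, and the PWD/PWD map 459, 2.7%. Both heterozygote shares stood far above this level. The PWD/B6 map of the (PWDxB6)F1, a separate library with the same Prdm9 alleles as B6/PWD, held 7012, 41.3%, and B6/CAST held 3358, 19.8%. That PWD/B6 map listed 23554 hotspots, down to a heat of 4, against 17516 down to 6.4 in B6/PWD, so their shares are not like for like. The H3K4me3 labels call the PWD/B6 (PWDxB6)F1 infertile and the (B6xPWD)F1 its reciprocal. Most matched centres lay close, with a median distance of 63 bp in B6/Humanized and 68 bp in B6/PWD, against 392 to 432 bp in the maps without a B6 allele. At the distance limit, 19 B6/B6 hotspots had their B6/Humanized centre 900 to 1000 bp away and 20 at 1000 to 1100 bp, with median B6/Humanized heats of 82.4 and 76.45. In B6/PWD these counts were 23 and 26, with median heats of 87.3 and 51.55.

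The found hotspots carried most of the B6/B6 heat but a minority of the heat of either heterozygote. Hotspots found in B6/Humanized held 60.0% of all B6/B6 heat and those found in B6/PWD 66.2%. In the heterozygotes themselves, centres matched to a B6/B6 hotspot carried 22.0% of the autosomal heat of the B6/Humanized map and 33.3% of that of the B6/PWD map. Heat is relative within a map: autosomal totals were 1.42e+06 in B6/Humanized, 1.49e+06 in B6/PWD and 1.42e+06 in B6/B6.

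How hot a hotspot was in B6/B6 went with whether it was found, and the 2 heterozygotes parted in the colder deciles. In the hottest decile 96.3% (95.3 to 97.1) were found in B6/Humanized and 97.6% (96.8 to 98.3) in B6/PWD. In decile 9 the shares were 79.2 and 82.2%, in decile 8 46.4 and 57.7%, in decile 7 22.1 and 35.9%, and in decile 6 11.1 and 25.7%, each time with B6/Humanized before B6/PWD. The gap was widest in decile 6, at -14.7 points, and narrowest in decile 10, at -1.36 points. In deciles 1 to 4 B6/Humanized held 2.47 to 3.12% of the hotspots, close to the 2.53 to 3.89% of the Humanized/PWD map, while B6/PWD held 8.54 to 12.7%. With B6/B6 hotspots within 1000 bp of a Humanized/Humanized or PWD/PWD hotspot left out, the coldest decile fell to 0.498% in B6/Humanized and 7.41% in B6/PWD. Cold B6 hotspots were found opposite PWD above the level of maps without a B6 allele, and opposite Humanized they were not detectably above it in these libraries. The lowest heat listed was 8.8 in B6/Humanized and 6.4 in B6/PWD.

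**Figure D1:**
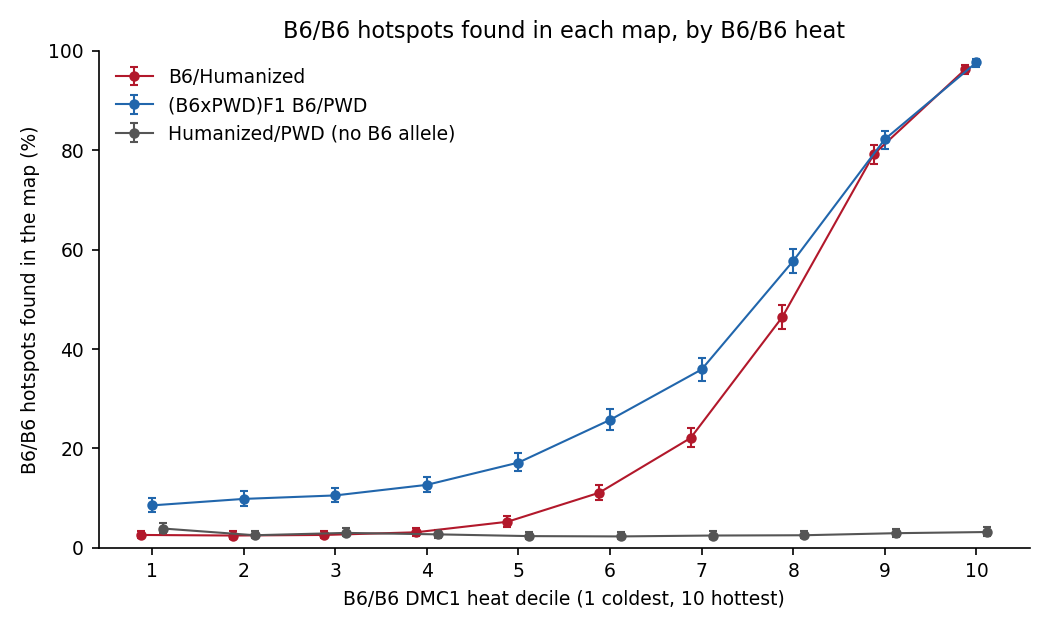
Share of B6/B6 hotspots found (y axis, %) by B6/B6 heat decile (x axis, about 1697 hotspots each) in B6/Humanized, B6/PWD and the Humanized/PWD map, which has no B6 allele; bars are 95% Wilson intervals. B6/PWD lies above B6/Humanized in each decile, and B6/Humanized meets the Humanized/PWD level in deciles 1 to 4.

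The 5 hottest B6/B6 hotspots in each outcome show these sites one by one. The genes named mark positions only. Among hotspots in both heterozygotes, the site 6667 bp from Asxl2, which encodes a Polycomb-associated chromatin protein, had heat 599.3 in B6/Humanized, 253.7 in B6/PWD and 674.1 in B6/B6. The site in an intron of the cadherin gene Fat4 (chr3:38905074) had heat 466.6 in B6/Humanized, 475.7 in B6/PWD and 670.0 in B6/B6. The Notch2 site, in coding sequence of that receptor gene (chr3:98137362), had 322.2 in B6/Humanized, 232.5 in B6/PWD and 643.3 in B6/B6. The site in an intron of Ankfn1 (chr11:89611929) had 740.8 in B6/Humanized, 750.6 in B6/PWD and 638.9 in B6/B6. It was the only 1 of these 5 that was hotter in both heterozygotes than in B6/B6. The site 91022 bp from Trim24, a transcriptional co-regulator gene (chr6:37779789), had 566.1 in B6/Humanized, 254.3 in B6/PWD and 638.7 in B6/B6.

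In the hottest decile, 25 hotspots were in B6/Humanized only, with heats of 14.3 to 96.8 there (median 25.2) and a median of 227.3 in B6/B6. The 48 in B6/PWD only had heats of 8.1 to 539.1 there (median 21.1) and a median of 236.95 in B6/B6, and 3 of them were hotter in B6/PWD than in B6/B6. By rule, the 5 hottest of each set in B6/B6 were picked, and some of them are described here. In B6/Humanized only, the site in an intron of the synaptic scaffold gene Magi2 had heat 21.6 in B6/Humanized and 322.4 in B6/B6, and the site in an intron of the chromatin remodeller gene Chd6 (chr2:161056976) had 23.2 in B6/Humanized and 283.3 in B6/B6. All 5 sites of this set were listed in the PWD/B6 map of the (PWDxB6)F1, with heats of 9.5 to 14.3 at 4 of them and 145.3 at the Lrrc28 intron site (chr7:67569856; 96.8 in B6/Humanized and 309.6 in B6/B6). In B6/PWD only, the site in an intron of Impa1, an inositol monophosphatase gene, had heat 60.5 in B6/PWD and 346.7 in B6/B6. The site in an untranslated region of the glutaredoxin gene Glrx3 (chr7:137452508) had 18.2 in B6/PWD and 315.8 in B6/B6. In neither heterozygote, the hottest was the Epc1 intron site (chr18:6493949), with heat 296.3 in B6/B6. The second Wdr70 site had 267.1 and the site in an intron of the microtubule-associated gene Eml4 (chr17:83367625) 265.6 in B6/B6. Their B6/B6 heats stood in the hottest decile, where 15 hotspots were found in neither map.

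The sets found in 1 heterozygote only differed in which other maps had a hotspot nearby. Of the 773 hotspots in B6/Humanized only, 22.4% (19.6 to 25.5) lay within 1000 bp of a Humanized/Humanized hotspot, against 3.45% of those in both maps and 0.623% of those in B6/PWD only. Of the 2247 in B6/PWD only, 7.21% lay within 1000 bp of a PWD/PWD hotspot, against 3.66% in both and 2.85% in B6/Humanized only. Within that distance a centre of the opposing allele can itself be the match that counted as found. Of the hotspots in B6/PWD only, 92.9% (91.8 to 93.9) were also in the PWD/B6 map of the (PWDxB6)F1. That map also held 98.3% of those in both, 38.9% of those in B6/Humanized only and 8.48% of those in neither. The authors' own allele column assigned 5727 of the 6075 B6/PWD-found hotspots, 94.3%, to B6 alone, 167 to B6 and PWD together and 51 to PWD.

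Which chromosome the DMC1 reads came from in B6/PWD divided these hotspots into kinds. The authors gave the share of DMC1 reads from the B6 chromosome, here the B6 share, at 5166 of the 6075 hotspots. It lay below 0.1 at 1506, with DMC1 reads almost entirely from the PWD chromosome, from 0.1 to 0.9 at 3074 and above 0.9 at 586. No share was given at 909. The number of informative reads behind each share is not in the file, so single shares have no interval.

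Hotspots with DMC1 reads mainly from the PWD chromosome had a higher median heat in B6/PWD than in B6/B6, and the other classes a lower one. Below a B6 share of 0.1, median heat was 131 (123 to 142) in B6/PWD and 59.8 (55.1 to 63.3) in B6/B6, a median log2 ratio of B6/PWD over B6/B6 of 0.86. With a B6 share from 0.1 to 0.9, median heat was 32.4 in B6/PWD and 177.85 in B6/B6, a median log2 ratio of -2.23. Above 0.9 it was 29.85 in B6/PWD and 178.6 in B6/B6, a median log2 ratio of -2.41. A B6 share exists only for hotspots listed in B6/PWD, so a hotspot that is cold in B6/B6 enters a class only if it passed the B6/PWD listing. Within the class below 0.1, the median log2 ratio was 2.37 in decile 1 and -0.15 in decile 10. Over the hottest 3 deciles, where fewer hotspots went unlisted, it was 0.10 (-0.02 to 0.20) below 0.1, -2.31 from 0.1 to 0.9 and -2.55 above 0.9. B6/Humanized and B6/B6 mice have no PWD chromosome.

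Hotspots of this class were also the ones least often found opposite the Humanized allele. Of those with a B6 share below 0.1, 26.0% (23.8 to 28.2) were in B6/Humanized, against 78.1% (76.6 to 79.5) from 0.1 to 0.9, 81.2% (77.9 to 84.2) above 0.9 and 61.6% (58.4 to 64.7) where no share was given. B6/B6 heat differed between these classes, so they were also compared within deciles. In decile 8, 43.8% of the hotspots below 0.1 were in B6/Humanized, against 68.9% from 0.1 to 0.9 and 68.75% above 0.9. In decile 9 these shares were 71.6, 87.5 and 92.6%. In decile 10 they were 94.4, 97.4 and 98.3%. The order from the lowest to the highest class was kept in deciles 9 and 10, and in decile 8 the upper 2 classes were alike.

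Hotspots below 0.1 made up most of the cold B6 hotspots that B6/PWD held. They were 73.5% (70.4 to 76.3) of the found hotspots with a B6 share in deciles 1 to 5, 47.9% in deciles 6 and 7, 18.8% in deciles 8 and 9 and 7.09% (5.90 to 8.50) in decile 10. With these 1506 left out of the anchors, 27.2% (26.5 to 27.9) of the remaining 15468 were found in B6/Humanized and 29.5% (28.8 to 30.3) in B6/PWD. The difference was then -2.32 percentage points (-2.87 to -1.77) in place of -8.68. This division was chosen with earlier results known, and it removes hotspots by a value of the B6/PWD map, so it lowers the B6/PWD share by construction.

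B6/CAST gave a further view of these sites. Of the hotspots with a B6 share below 0.1 in B6/PWD, 72.3% (70.0 to 74.5) were found in B6/CAST, against 43.8% from 0.1 to 0.9, 41.8% above 0.9 and 19.8% of all B6/B6 hotspots. CAST is a strain of a further mouse subspecies, and the (B6xCAST)F1 males had a B6 and a CAST copy of each autosome. In the hottest 3 deciles, where the classes are closer in B6/B6 heat, the shares in B6/CAST were 81.1, 49.4 and 47.5% from the lowest to the highest class.

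At the 3828 hotspots in both heterozygotes, heat was on balance higher in B6/Humanized. Median heat was 45 in B6/Humanized, 41.2 in B6/PWD and 189.6 in B6/B6. The median log2 ratio of B6/Humanized over B6/PWD was 0.34 (0.31 to 0.38). Heat was at least 2-fold higher in B6/Humanized at 829 hotspots, 21.7%, and at least 2-fold lower at 507, 13.2%. Against B6/B6 the median log2 ratio was -1.93 in B6/Humanized and -2.16 in B6/PWD at these hotspots. Each map has its own total and its own lowest listed heat, and sites near that floor enter only when they pass it.

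The direction of the heat ratio depended on the B6 share. Below 0.1, the median log2 ratio of B6/Humanized over B6/PWD was -2.26 (-2.45 to -2.10) over 391 hotspots, and 83.6% were at least 2-fold lower in B6/Humanized. From 0.1 to 0.9 it was 0.33 (0.29 to 0.37) over 2401, with 19.6% at least 2-fold higher and 6.58% at least 2-fold lower in B6/Humanized. Above 0.9 it was 0.59 (0.53 to 0.66) over 476, and where no share was given it was 0.77 (0.68 to 0.86) over 560. The B6 share and the B6/PWD heat come from the same library. With the B6 share taken from the PWD/B6 map of the (PWDxB6)F1 instead, a separate library, the medians were -2.35, 0.37 and 0.57. The shares of the 2 F1 maps had a Spearman rho of 0.952 over 5028 hotspots and gave the same class at 93.8%.

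**Figure D2:**
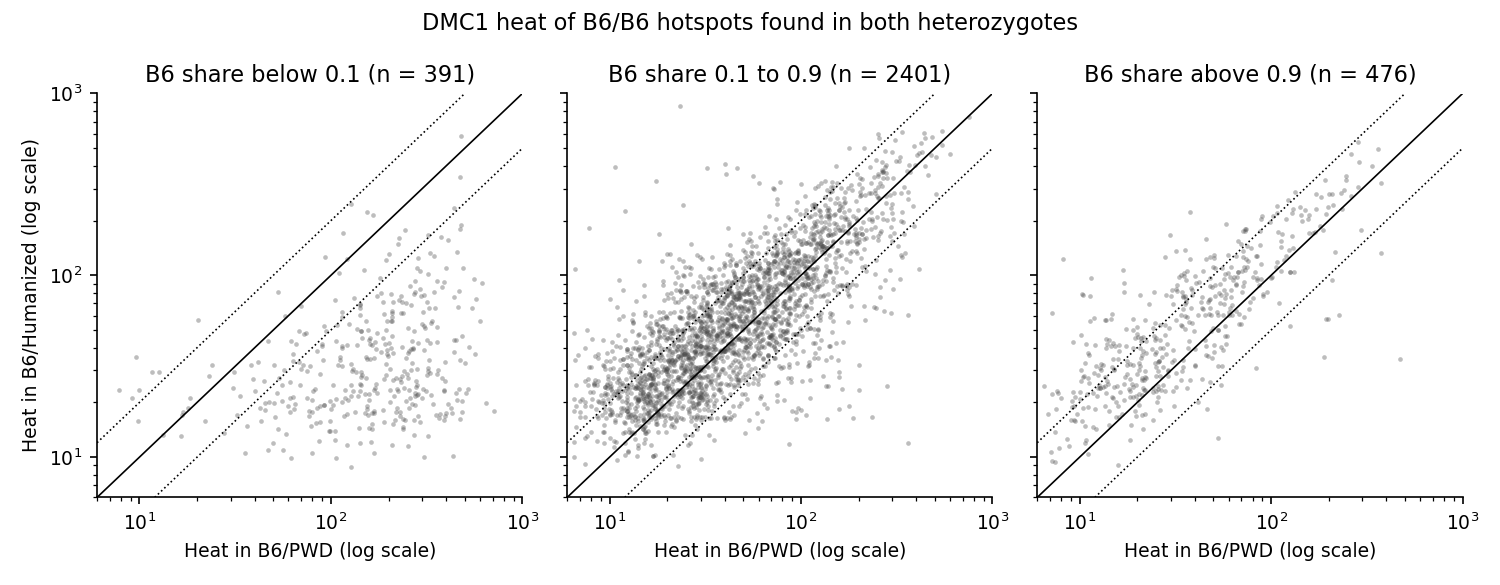
DMC1 heat in B6/Humanized (y axis, log scale) against B6/PWD (x axis, log scale) at B6/B6 hotspots found in both, in 3 panels by B6 share of DMC1 reads in B6/PWD; the solid line marks equal heat and dotted lines a 2-fold difference. Points with a B6 share under 0.1 lie mostly under the lower dotted line (83.6%), and those of the other panels lie around and above the line of equal heat.

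Heat relative to B6/B6 was followed in bins of 0.1 of the B6 share, over the same hotspots, found in both heterozygotes, for both ratios. The median log2 ratio of B6/Humanized over B6/B6 stayed between -2.20 and -1.82. That of B6/PWD over B6/B6 was 0.20 below 0.1 (391 hotspots), -0.998 from 0.1 to 0.2, -1.79 from 0.2 to 0.3, -2.19 from 0.5 to 0.6, -2.70 from 0.8 to 0.9 (216) and -2.44 from 0.9 to 1 (483). The ratios of B6/Humanized and B6/PWD therefore crossed between 0.2 and 0.4. Heat in B6/Humanized and B6/PWD had a Spearman rho of 0.58 over all 3828 hotspots, of 0.29 below 0.1, 0.72 from 0.1 to 0.9 and 0.78 above 0.9. These are descriptions across hotspots of 1 pair of libraries, which share base composition and mappability at each site.

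**Figure D3:**
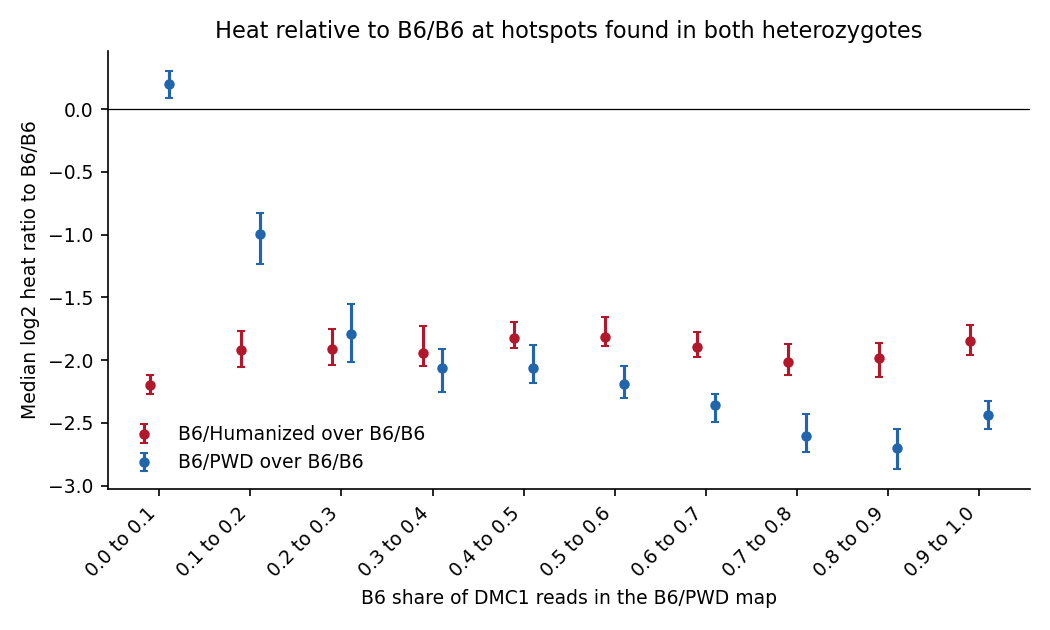
Median log2 heat ratio to B6/B6 (y axis) of B6/Humanized and of B6/PWD over the hotspots found in both, in bins of 0.1 of the B6 share of DMC1 reads (x axis), with 95% intervals for the medians. B6/Humanized stays between -2.20 and -1.82, and B6/PWD lies at 0.20 in the bin under 0.1, at -2.70 in the bin from 0.8 to 0.9 and at -2.44 in the last bin.

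Multiplying B6/PWD heat by the B6 share gives the heat on its B6 chromosomes, which can be set beside B6/Humanized heat divided by 2, the value per chromosome in a mouse with B6 copies only. Over the hotspots in both maps with a B6 share from 0.1 to 0.9, the median per B6 chromosome was 25.25 (24.2 to 26.45) in B6/Humanized and 20.1 (19.1 to 20.9) in B6/PWD. B6/Humanized was the higher at 66.4% of these 2401. Above 0.9 it was 25.7 (22.15 to 28.85) in B6/Humanized and 32.8 (28.5 to 35.7) in B6/PWD, and B6/Humanized was the higher at 30.5% of 476. Below 0.1 it was 14.65 in B6/Humanized and 5.72 in B6/PWD, while the PWD chromosome there had 169. The order of the heterozygotes per B6 chromosome was therefore not the same in the class above 0.9 as in the others. The classes were cut on the same B6 share that enters the B6/PWD value, so this order is partly set by the sorting. These values were not computed with the B6 share of the (PWDxB6)F1.

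Single sites of the hottest 1000 found in both show the range of these ratios. The first Wdr70 intron site had heat 19.9 in B6/Humanized, 645.8 in B6/PWD and 261.3 in B6/B6, a 32.5-fold lower heat in B6/Humanized than in B6/PWD, with a B6 share of 0.016. The site 7849 bp from the G-protein gene Gnaq (chr19:16395312) had 23.3 in B6/Humanized, 387.4 in B6/PWD and 301.0 in B6/B6, with a B6 share of 0.034. The site 145523 bp from the axon guidance receptor gene Robo1 (chr16:72162783) had 36.8 in B6/Humanized, 564.4 in B6/PWD and 280.4 in B6/B6, with a B6 share of 0.022. All 3 were also hot in the (PWDxB6)F1, at 323.8 to 515.0. At the other end, the Mdn1 intron site (chr4:32727027) had 850.9 in B6/Humanized, 23.3 in B6/PWD and 447.1 in B6/B6, and the Humanized/Humanized map had a hotspot of heat 578 there. The Tbc1d31 intron site (chr15:57965492), with no Humanized/Humanized hotspot, had 169.4 in B6/Humanized, 18.1 in B6/PWD and 301.0 in B6/B6.

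The hottest sites of each class gave the same picture with exceptions. Below 0.1, the site in an intron of Fem1c (chr18:46510167) was not found in B6/Humanized, had heat 766.3 in B6/PWD and 28.3 in B6/B6, with a B6 share of 0.006. The sites 28157 bp from Sfrp2, a Wnt modulator gene (chr3:83738164), and 68119 bp from the superoxide dismutase gene Sod3 (chr5:52295672) were hot in both heterozygotes, with 580.3 and 346.7 in B6/Humanized against 479.8 and 474.4 in B6/PWD. Both were also Humanized/Humanized hotspots, of heat 512.5 and 195.5. From 0.1 to 0.9, the intron sites of the growth factor gene Nrg1 (chr8:32250368) and the sialyltransferase gene St8sia1 (chr6:142862176) had 618.4 and 520.0 in B6/Humanized against 545.4 and 544.5 in B6/PWD. Above 0.9, the intron site of Armc9 (chr1:86218138) had 539.3 in B6/Humanized, 284.4 in B6/PWD and 398.6 in B6/B6, with a B6 share of 0.991.

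H3K4me3, a measurement made on other libraries, was set beside the DMC1 classes. In B6/B6 testis the median H3K4me3 enrichment over local background was 1.64 (1.59 to 1.69) at hotspots found in both heterozygotes, 0.653 (0.599 to 0.698) in B6/Humanized only, 0.461 (0.437 to 0.491) in B6/PWD only and 0.209 (0.2003 to 0.225) in neither. Because found hotspots are hotter, the classes were compared within deciles. In decile 9 the medians were 1.54 (1.49 to 1.60) in both, 0.866 (0.683 to 0.990) in B6/Humanized only, 0.825 (0.705 to 0.995) in B6/PWD only and 0.615 (0.490 to 0.766) in neither. In decile 7 they were 1.11, 0.702, 0.646 and 0.507 in the same order. In deciles 5 to 10 the median was highest at hotspots found in both, and in deciles 7 and 9 the intervals of the 2 sets found in 1 heterozygote overlapped. Deciles 1 to 4 had 7 to 12 hotspots in both, and there the order varied, with medians of 0 in both and 0.0211 in neither in decile 1. Median B6/B6 heat within decile 9 was 170.8 in both, 159.2 in B6/Humanized only, 159.75 in B6/PWD only and 154.5 in neither. This table holds pseudoreplicates of 1 library, with the input library of Humanized/Humanized males. Bins marked as having PRDM9-independent H3K4me3 were kept in these medians. They were 5.79% of all B6/B6 hotspots. By class they were 7.52% in both, 10.5% in B6/Humanized only, 6.50% in B6/PWD only and 4.61% in neither.

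**Figure D4:**
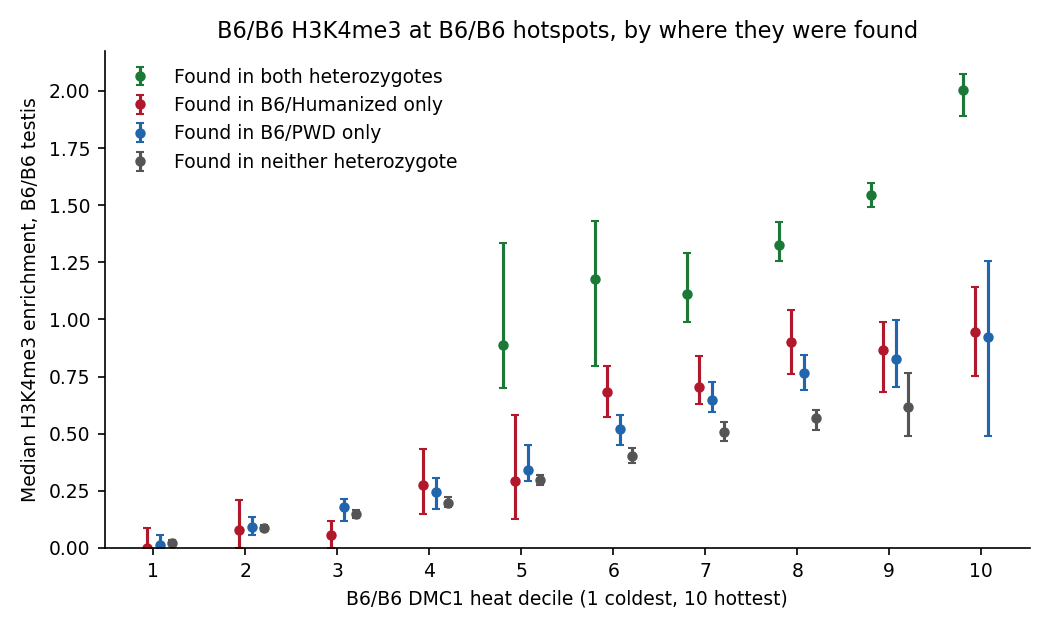
Median H3K4me3 enrichment in B6/B6 testis (y axis, ratio to local background) by B6/B6 heat decile (x axis) for hotspots found in both heterozygotes, in 1 only or in neither, with 95% intervals for the medians and groups of at least 20 hotspots. From decile 6 to decile 9 the hotspots found in both lie highest, at 1.17 in decile 6 and 1.54 in decile 9.

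By B6 share, H3K4me3 was read in the (B6xPWD)F1 and B6/B6 tables, and the other tables were not used here. Below 0.1, the median enrichment was 1.01 (0.934 to 1.06) in the (B6xPWD)F1 and 0.454 (0.412 to 0.494) in B6/B6. From 0.1 to 0.9 it was 0.436 (0.404 to 0.467) in the F1 and 1.495 (1.45 to 1.54) in B6/B6, and above 0.9 it was 0.224 (0.188 to 0.307) in the F1 and 1.48 (1.36 to 1.59) in B6/B6. Each table has its own scale, so the order of the classes within a table is what can be read. The 2 biological replicates of the F1 gave the same order, with ChIP to input ratios of summed counts of 1.76 and 1.67 below 0.1, 1.61 and 1.51 from 0.1 to 0.9, and 1.12 and 1.07 above 0.9. The B6 fraction of H3K4me3 in the F1, in bins with at least 10 informative reads, had medians of 0 below 0.1 (1190 bins), 0.466 from 0.1 to 0.9 (1455) and 0.984 above 0.9 (254). DMC1 and H3K4me3 B6 shares had a Spearman rho of 0.828 over 2899 hotspots. B6/B6 heat was not held equal in the enrichment medians by class above. Within decile 9 the B6/B6 medians were 1.15, 1.54 and 1.45 from the lowest to the highest class. Within decile 10 they were 1.44, 2.04 and 1.94. The F1 medians were not computed within deciles. No H3K4me3 table of B6/Humanized testis was used here.

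Along the genome the Humanized heterozygote was the more uneven. The share of B6/B6 hotspots found ran from 19.7% (16.3 to 23.7) on chromosome 19 to 34.9% (31.6 to 38.2) on chromosome 12 in B6/Humanized, and from 32.0% (29.0 to 35.3) on chromosome 9 to 38.5% (34.1 to 43.2) on chromosome 19 in B6/PWD. The SD over 19 autosomes was 3.78 points in B6/Humanized and 1.88 in B6/PWD. The B6/PWD share was the higher on 19 of 19 autosomes, by 0.355 points on chromosome 9 and by 18.8 points on chromosome 19. Chromosomes 10, 18 and 19 had the lowest shares in B6/Humanized, 21.4, 20.2 and 19.7%, and 36.2, 34.8 and 38.5% in B6/PWD, where the median over autosomes was 36.2%. Low shares on chromosomes 18 and 19 were not particular to B6/Humanized. B6/CAST was also lowest there, at 16.7 and 14.7%, with 19.4% on chromosome 10 and 19.8% over all B6/B6 hotspots. The spread in B6/Humanized and B6/PWD remained when B6/B6 heat was allowed for. Relative to the share that the deciles of its hotspots would give, the found share ran from 0.720 on chromosome 19 to 1.23 on chromosome 12 in B6/Humanized and from 0.920 on chromosome 9 to 1.07 on chromosome 19 in B6/PWD.

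**Figure D5:**
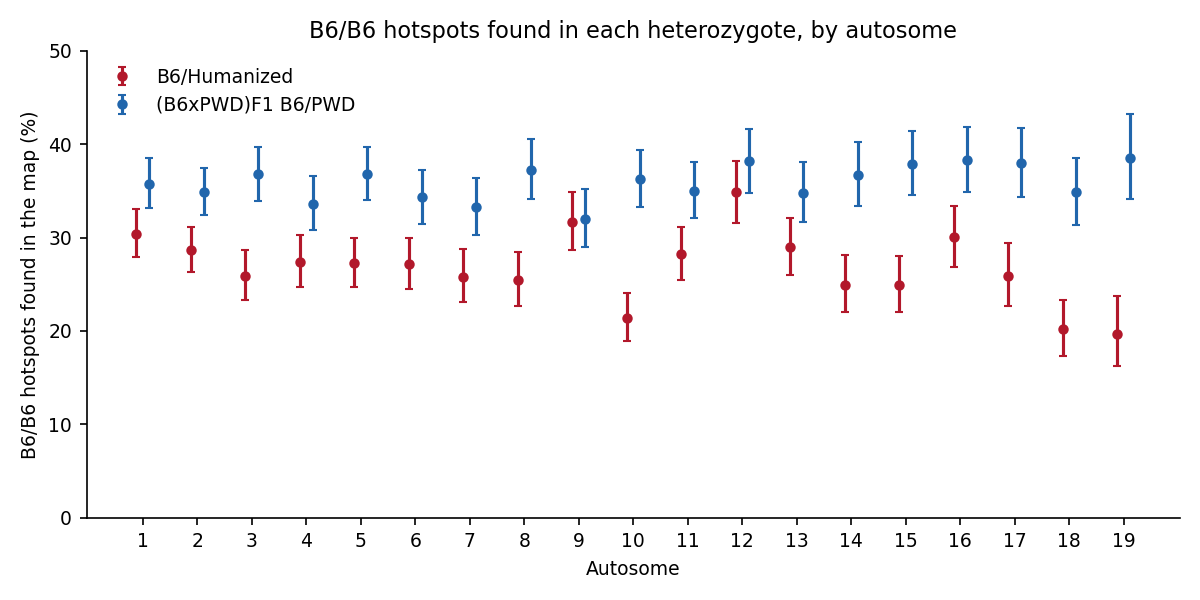
Share of B6/B6 hotspots found (y axis, %) on each autosome (x axis) in B6/Humanized and B6/PWD, with 95% Wilson intervals. B6/PWD is higher on each of the 19 autosomes, by 0.355 points on chromosome 9 and 18.8 points on chromosome 19.

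The heat ratio also differed by chromosome. The median log2 ratio of B6/Humanized over B6/PWD was 0.82 (0.61 to 1.02) on chromosome 9 and 0.72 (0.59 to 0.83) on chromosome 1, and it was above 0 on 16 of 19 autosomes. It was -0.21 (-0.35 to -0.12) on chromosome 10, -0.23 (-0.40 to 0.05) on chromosome 18 and -0.37 (-0.58 to -0.07) on chromosome 19. Whole-map heat was itself spread differently over chromosomes. Chromosome 9 held 5.22% of all autosomal heat in B6/Humanized, 3.63% in B6/PWD and 4.78% in B6/B6, chromosome 10 held 4.75% in B6/Humanized, 6.04% in B6/PWD and 5.60% in B6/B6, and chromosome 18 held 3.62% in B6/Humanized, 5.48% in B6/PWD and 4.16% in B6/B6. The part of this spread in the values above was not tested. Among hotspots found in B6/PWD with a B6 share given, those below 0.1 made up 23.3% on chromosome 1, the lowest, and 34.4% on chromosome 8, the highest.

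Each chromosome was also divided into 5 equal parts. In the part farthest from the centromere, 20.98% (19.7 to 22.3) of B6/B6 hotspots were found in B6/Humanized, against 26.5 to 30.2% in the other parts. In B6/PWD the distal part had 32.7% (31.2 to 34.2), against 34.3 to 38.0% elsewhere. Relative to the share that B6/B6 heat deciles would give, the distal part stood at 0.857 in B6/Humanized and 0.978 in B6/PWD, and the proximal part at 0.908 in B6/Humanized and 0.910 in B6/PWD.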

How the data were processed

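The 9 DMC1 ChIP-seq maps came, apart from B6/B6, from snap-frozen testes, with 1 library each, and H3K4me3 tables from whole adult testis. Per the submitters' processing notes, BWA, SAMtools and bedtools were used on builds mm10 and mm9, without versions. How hotspots were called and how heat was defined is not given in the sources used here. Heat is a relative DMC1 signal that the authors deposited, and the B6 share another value of theirs, a fraction from 0 to 1. In the H3K4me3 tables, per the file headers, counts are fragments over a bin of 1000 bp around a hotspot, the enrichment is a ratio to local background with a minimum of 0, the number of informative reads is a score after background subtraction, and a further column of another kind marks bins with PRDM9-independent H3K4me3. The depth of the DMC1 libraries is not given in the sources used here. Usable H3K4me3 depth stands in the labels as ranges and was not recomputed.

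Members and lists were chosen with earlier results of these data known. The X chromosome was left out (1042 B6/Humanized hotspots, coded as 20). Shares carry Wilson intervals, medians order-statistic intervals and the paired difference a normal interval over discordant hotspots, all at 95%. Named sites were the 5 hottest of each outcome, the 3 highest and lowest heat ratios among the hottest 1000 in both maps, and the 3 with the highest summed heat of each B6 share class, without hotspots whose input count exceeded 10 times the median of 33 (34 hotspots, of which 30 were found in B6/Humanized and 25 in B6/PWD). Not all of them are described. Genes are GENCODE M21 and sequences GRCm38, the mm10 assembly. The work used pandas 2.3.3, SciPy 1.17.1, Matplotlib 3.10.9 and NumPy 2.4.6 under Python 3.11.15, and the matching was tested on simulated maps.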

Additional observations from a re-analysis of the deposited data

How the results depend on the processing

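The difference in the share found stayed negative under every alternative run. It was -5.94 points with the hottest 16163 hotspots of each map, -6.56 with a common lowest heat of 8.8, -14.2 with the (PWDxB6)F1 map in place of the (B6xPWD)F1 map and -2.32 without hotspots with a B6 share below 0.1, an alternative added after seeing the data. The (PWDxB6)F1 map listed more hotspots, down to a lower heat, than the (B6xPWD)F1 map. The share found in B6/Humanized was 26.4 and 28.3% with limits of 500 and 2000 bp, 25.9% without hotspots near Humanized/Humanized or PWD/PWD hotspots, and 29.5% for the mm9 lists with joint calling, where the corresponding B6/PWD list was not analysed. The share found in B6/PWD in these settings was 35.1, 36.9 and 35.0%, and it was 33.1% with the equal number, 33.7% with the common lowest heat, 41.3% with the (PWDxB6)F1 map and 29.5% without hotspots below 0.1. The share in both was 21.6% with the equal number, 21.9% with the common lowest heat and 23.9% with the (PWDxB6)F1 map.

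The median log2 ratio of B6/Humanized over B6/PWD was 0.30 with the equal number, 0.40 with heat over the map total and 1.00 with heat over the total at matched hotspots. The ratio of B6/Humanized over B6/B6 was -1.95 over all hotspots found there, -1.90 with 2000 bp, -2.02 without hotspots near Humanized/Humanized or PWD/PWD hotspots, and it reversed to 0.23 with heat over the matched total. That scaling divides by the sum over the B6 hotspots still found, so it raises the ratio by construction. The ratio of B6/PWD over B6/B6 was -1.86 over all hotspots found there and -1.94, -1.72, -1.75, -1.999, -1.93 and -0.34 without hotspots near Humanized/Humanized or PWD/PWD hotspots, with the equal number, the common lowest heat, the (PWDxB6)F1 map, the map total and the matched total. Below a B6 share of 0.1 the ratio of B6/Humanized over B6/PWD was -1.60 with the matched total and -1.19 with the limit at 0.3. Between the limits it was 0.39 with the map total, 0.99 with the matched total and 0.38 with limits of 0.3 and 0.7, and above them 1.25 with the matched total and 0.69 with the (PWDxB6)F1 map. The signs by class did not change in these settings. Of the shares found by decile and class and the H3K4me3 medians by class, 71 stayed within the interval of the reported value and 16 moved outside it. Such values cannot change sign. Of the shares over all hotspots, their difference and the heat ratios, 65 stayed within that interval, 36 moved outside it and 1 reversed. Some settings could not change B6/Humanized values, since 16163 hotspots and heat 8.8 are that map's own size and lowest heat. The swapped F1 map likewise does not enter the B6/Humanized share, its shares by decile or its ratio to B6/B6. The counts of values that stayed were therefore partly fixed in advance. B6/PWD had the higher share on 17 autosomes with the equal number and on 18 with the common lowest heat.

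No paired analysis was possible because each genotype has 1 DMC1 library and the results come from no test. A hotspot below the lowest listed heat of a map cannot be found in it. The part of this limit, or of library depth, in the shares of the cold deciles was not tested.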

Other observations

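Hot B6 hotspots were also read by distance to hotspots of the opposing allele. In the hottest 3 deciles, 90.7% (83.8 to 94.9) of B6/B6 hotspots within 1 kb of a Humanized/Humanized hotspot were found in B6/Humanized. The share was 64.7% (59.3 to 69.7) at 1 to 5 kb, 71.7% (68.9 to 74.4) at 5 to 20 kb, 73.4% at 20 to 50 kb and 75.7% (73.9 to 77.4) beyond 50 kb. The corresponding shares for B6/PWD by distance to PWD/PWD hotspots were 89.5% (83.1 to 93.6) within 1 kb and then 74.7% (70.4 to 78.5), 77.9, 78.7 and 80.8% (78.9 to 82.5). Within 1 kb, a hotspot of the opposing allele can itself count as the match, so these bins are high partly by construction. Median log2 heat over B6/B6 there was -0.45 in B6/Humanized and -0.96 in B6/PWD, against -2.03 and -2.22 beyond 50 kb. Shares also differed by distance to the hotspots of the allele that was not present. B6/Humanized had 72.8% within 1 to 5 kb and 77.3% beyond 50 kb of PWD/PWD hotspots, and B6/PWD had 76.7% and 82.0% for Humanized/Humanized hotspots. Median B6/B6 heat in the bins beyond 1 kb was 157.9 to 168.85, lowest in the bin of 1 to 5 kb from a Humanized/Humanized hotspot, and its part in the result was not tested.

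Hotspots in B6/Humanized only lay in protein-coding genes more often than others, 59.2% (55.7 to 62.7) of them against 53.9% (52.3 to 55.5) in both, 50.8% (48.7 to 52.8) in B6/PWD only and 52.0% (51.0 to 53.0) in neither. Over all B6/B6 hotspots the share in genes was 52.6%. Median GC content of the central 300 bases was 45.3% in B6/Humanized only and 43.7% in each of the others. Of the hotspots in B6/Humanized only, 22.4% lay within 1000 bp of a Humanized/Humanized hotspot. B6/B6 heat was not held equal either, and the part of both in these results was not tested. Between 1.99 and 2.59% of the hotspots of these sets lay within 1000 bp of a transcription start.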
